A study of Homo sapiens with 8 samples.

Results

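The matrix metalloproteinases (MMPs) and tissue inhibitors of metalloproteinases (TIMPs) were described in A549-S3KO cells that carried Smad3 in its wild-type form or as the mutant Smad3(RA/KP). The members were 10 genes chosen by symbol, *MMP1*, *MMP2*, *MMP7*, *MMP9*, *MMP10*, *MMP14*, *MMP15*, *TIMP1*, *TIMP2* and *TIMP3*, of 30017 symbols in the expression tables. A549 is a human lung adenocarcinoma line, and A549-S3KO is its derivative in which *SMAD3* was disrupted, so all 4 groups lack endogenous Smad3. Lentivirus returned a cDNA of wild-type Smad3 or of Smad3 R104K A105P, here Smad3(RA/KP), which carries a double substitution in the MH1 domain. Poly(A) RNA of each line was sequenced from cells on collagen, untreated or given TGF-β at 1 ng/ml for 8 h. Each of the 4 groups had n = 2 libraries. Cells were detached with trypsin and replated on collagen, and TGF-β was added at the time of replating. How long untreated cells were kept between replating and harvest is unstated. A difference in that time could thus not be told apart from the response to TGF-β. The study's methods describe limiting-dilution clones of infected cells and the choice of the clone with the lowest Smad3 level for the wild-type form. The sources used here do not name the sequenced clones, so a difference between clones cannot be told apart from a difference between the Smad3 forms.

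Values are TPM, the length-corrected share of each gene among 1000000 transcripts, which corrects for transcript length and depth and so allows levels to be compared between genes. Mapped bases were 1.15 to 1.27 Gb in the libraries of replicate 1 and 1.41 to 1.81 Gb in those of replicate 2. *SMAD3* had 137 to 187 TPM in all 8 libraries, where reads of the lentiviral cDNA and of the disrupted gene count together. Of 7 epithelial markers, 6 were above 1 TPM and *KRT19* was listed at 0 in every library, so a listed 0 may be a failed estimate. Markers of stroma summed to 1.20 to 5.61 TPM with *DCN* at 0, those of leukocytes to 4.74 to 13.5 TPM with *PTPRC* at 0, and those of endothelium to at most 0.210 TPM. The GC content of genes correlated with the difference between replicates at a Spearman rho of −0.589 in untreated Smad3(RA/KP) cells. In the other groups rho was 0.104 to 0.225. The 2 untreated Smad3(RA/KP) libraries thus differed in a way related to GC content, which does not show which of them deviated. In bulk RNA, a change in the number of expressing cells and a change in the RNA per cell cannot be told apart.

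MMPs are zinc-dependent endopeptidases that cleave collagens, laminins, proteoglycans and many cell-surface proteins. Most are secreted as inactive proenzymes, whereas the membrane-type enzymes are anchored at the cell surface and are activated inside the cell by furin-like convertases. TIMPs bind the catalytic site of active MMPs and block it, and proteolysis around a tumor cell depends on both families. TGF-β is known for raising several MMPs during epithelial-mesenchymal transition, the change in which epithelial cells lose their junctions and become motile.

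The first question was which members TGF-β changed. All 10 members passed the filter of a mean of at least 1 TPM. *MMP1*, *MMP2*, *MMP9*, *MMP10*, *TIMP2* and *TIMP3* rose with TGF-β, and did so with either form of Smad3. *MMP7*, *MMP14*, *MMP15* and *TIMP1* did not pass the test in either line. The count was therefore 6 of 10 higher and 0 of 10 lower in cells with wild-type Smad3, where 4.68% of the 13141 tested genes passed and 2.94% passed as higher. In cells with Smad3(RA/KP) it was again 6 of 10 higher and 0 of 10 lower, where 4.98% of genes passed and 3.49% passed as higher. The test was limma on log2(TPM + 1) with Benjamini-Hochberg adjustment over all tested genes, and a gene passed at an adjusted p under 0.05. The median log2 fold change of the members was 1.37 with wild-type Smad3 and 1.56 with Smad3(RA/KP), against −0.06 and −0.10 over all tested genes. Both treated libraries lay above both untreated libraries for 6 members with wild-type Smad3, as for 17.8% of all genes, and for 7 members with Smad3(RA/KP), as for 19.0% of all genes. *MMP1*, *MMP10* and *TIMP3* averaged under 1 TPM in untreated cells and passed the filter only through their treated libraries, so the filter favored a difference and the count of 6 is given as a description. With no filter, *MMP1*, *MMP9* and *MMP10* did not pass in either line (limma adjusted p = 0.167, 0.0856 and 0.128 with wild-type Smad3, and 0.102, 0.0516 and 0.0871 with Smad3(RA/KP)). That setting raises the number of genes adjusted over and also estimates anew the spread that the genes share. With 2 libraries per group, all calls but those of *MMP2* in both lines and of *TIMP3* with Smad3(RA/KP) were lost in at least 1 alternative fit.

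**Figure D1:**
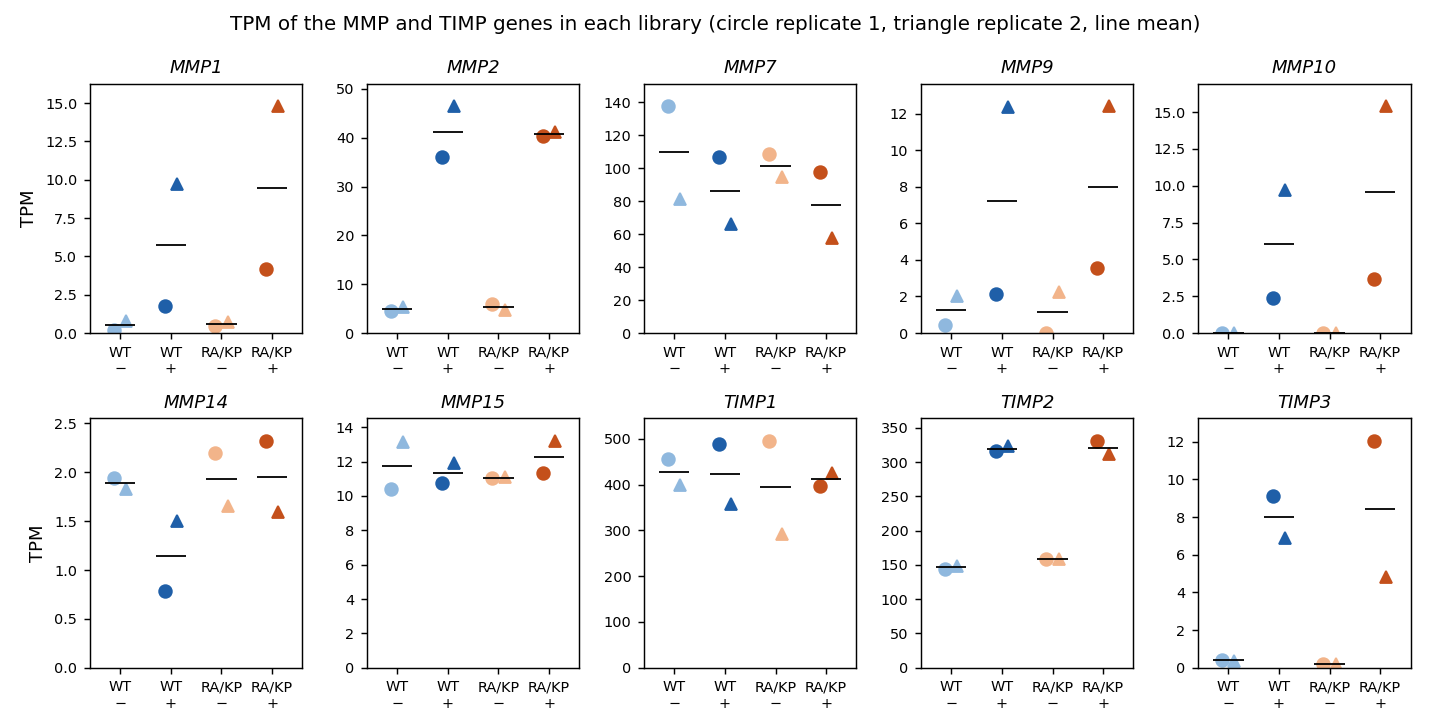
TPM of each member in each library on a linear axis from 0, with one panel per gene. WT and RA/KP name the Smad3 form, − and + mark cells without and with TGF-β, circles are replicate 1, triangles are replicate 2 and lines are the means of 2 libraries. The 4 treated libraries lie above the 4 untreated ones for *MMP1*, *MMP2*, *MMP10*, *TIMP2* and *TIMP3*.

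*MMP2* encodes a gelatinase that cleaves denatured collagen and type IV collagen of basement membranes. It had 4.51 and 5.23 TPM in untreated cells with wild-type Smad3 and 36.0 and 46.4 TPM after TGF-β. In Smad3(RA/KP) cells it had 5.90 and 4.73 TPM before and 40.4 and 41.2 TPM after treatment. The untreated and treated ranges did not overlap in either line, and treated levels were 6.84 to 8.87 times the untreated level of the same replicate. The log2 fold change was 2.84 (SE 0.21, limma adjusted p = 0.000207) with wild-type Smad3. The Smad3(RA/KP) value was 2.73 (SE 0.21, limma adjusted p = 0.000293). *MMP2* passed in both lines in each of the 20 alternative fits, those that left out 1 library included. The record of *MMP2* lies on chromosome 16 at 55479169 to 55506674 (GRCh38, plus strand).

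*MMP9* encodes the other gelatinase, which is often induced in inflammation and invasion. In cells with wild-type Smad3 it had 0.459 and 2.01 TPM before and 2.12 and 12.3 TPM after TGF-β. In Smad3(RA/KP) cells replicate 1 was listed at 0 before treatment and had 3.54 TPM after, and replicate 2 went from 2.25 to 12.4 TPM. Treated libraries were above untreated ones within each line, but replicate 2 was higher than replicate 1 in each group. Its log2 fold change was 1.62 (SE 0.30, limma adjusted p = 0.0174) with wild-type Smad3. For Smad3(RA/KP) it was 2.11 (SE 0.30, limma adjusted p = 0.0056). Without the replicate block the adjusted p was 0.484 with wild-type Smad3 and 0.249 with Smad3(RA/KP). The wild-type call was also lost without untreated wild-type replicate 2 (adjusted p = 0.218) or either treated wild-type library (0.0883 and 0.262) and with a pseudocount of 0.1 TPM (0.106), and the Smad3(RA/KP) call without either of its treated libraries (0.0511 and 0.0644). *MMP9* lies on chromosome 20 at 46008908 to 46016561 (GRCh38, plus strand).

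*MMP1* encodes interstitial collagenase, which opens the triple helix of fibrillar collagens. Its TPM was 0.197 and 0.802 in untreated cells with wild-type Smad3 and 1.75 and 9.69 after TGF-β. In Smad3(RA/KP) cells it was 0.476 and 0.716 before and 4.19 and 14.8 after treatment. Treated levels did not overlap untreated ones in either line, and in replicate 2 they were 3.53 to 5.54 times those in replicate 1. The log2 fold change was 1.88 (SE 0.42, limma adjusted p = 0.0389) with wild-type Smad3. The Smad3(RA/KP) value was 2.51 (SE 0.42, limma adjusted p = 0.0114). The wild-type call of *MMP1* held in 6 of 19 alternative fits, the fewest among the 6 genes, and when 1 library was left out it passed only where that library was untreated Smad3(RA/KP). Its adjusted p over these fits was 0.0146 to 0.404, and 0.252 without the replicate block. The Smad3(RA/KP) call was lost without untreated or treated Smad3(RA/KP) replicate 2 (adjusted p = 0.0936 and 0.143) and without the block (0.115).

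*MMP10* encodes stromelysin 2, which cleaves proteoglycans and laminin and can activate other proMMPs. It was listed at 0 in all 4 untreated libraries. After TGF-β it had 2.39 and 9.70 TPM with wild-type Smad3 and 3.69 and 15.4 TPM with Smad3(RA/KP). Every treated library listed *MMP10* above 0 and no untreated library did, and no ratio is given against the listed 0. The fitted log2 change, whose size depends on the added 1 TPM, was 2.59 (SE 0.49, limma adjusted p = 0.0181) with wild-type Smad3. For Smad3(RA/KP) it was 3.13 (SE 0.49, limma adjusted p = 0.0081). The wild-type call was lost without untreated wild-type replicate 2 (adjusted p = 0.130), without either treated wild-type library (0.0847 and 0.244) and without the replicate block (0.0892). The Smad3(RA/KP) call was lost without untreated or treated Smad3(RA/KP) replicate 2 (0.0848 and 0.110).

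The 3 genes *MMP1*, *MMP9* and *MMP10* thus shared a split between replicates that *MMP2* and *TIMP2* lacked. Their treated TPM in replicate 2 was 3.50 to 5.81 times that in replicate 1, against 1.02 to 1.29 for *MMP2* and 0.943 to 1.02 for *TIMP2*. *FOSL1*, an AP-1 subunit, moved with the same split at 57.5 to 86.0 TPM in replicate 1 and 142 to 186 TPM in replicate 2, treated or not. *ETS1* did so too, at 7.92 to 17.1 TPM in replicate 1 and 22.3 to 33.3 TPM in replicate 2. Both were picked from the 20 transcription factors described below after their values were seen. The share of all genes with this split is not given. *ELF3* was higher in replicate 1 in every group, and *JUNB*, also an AP-1 subunit, lacked the split. Mapped bases were also higher in replicate 2, as given above. The part of these genes and of depth in the split was not tested.

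*MMP7* encodes matrilysin, a small secreted MMP made mainly by epithelial cells. It was the most abundant MMP of the 7, at 137 and 81.6 TPM in untreated and 106 and 65.9 TPM in treated cells with wild-type Smad3. In Smad3(RA/KP) cells it had 109 and 94.4 TPM before and 97.9 and 57.8 TPM after TGF-β. The treated library was lower than the untreated one in each replicate of each line, at 0.612 to 0.901 of its level, but the groups overlapped. The log2 fold change was −0.34 (SE 0.18, limma adjusted p = 0.430) with wild-type Smad3 and −0.42 (SE 0.18, limma adjusted p = 0.218) with Smad3(RA/KP). Without untreated Smad3(RA/KP) replicate 1 the Smad3(RA/KP) value was −0.69, and without replicate 2 of that group it was −0.16. With the GC trend removed it was −0.10 (limma adjusted p = 0.631). *MMP7* was higher in replicate 1 than in replicate 2 in every group.

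*MMP7*, *MMP10* and *MMP1* lie on the minus strand of chromosome 11 in a cluster of MMP genes (GRCh38). *MMP7* is at 102520508 to 102530747, *MMP10* at 102770502 to 102780628 and *MMP1* at 102789910 to 102798235, with 239755 bp between *MMP7* and *MMP10* and 9282 bp between *MMP10* and *MMP1*. The cluster held 9 MMP records over 435 kb, of which *MMP8*, *MMP12*, *MMP13*, *MMP20* and *MMP27* were listed at 0 in every library. *MMP3*, stromelysin 1, is the next record after *MMP1*. Like *MMP10* it was listed at 0 in all untreated libraries, and it had 2.18 and 3.55 TPM with wild-type Smad3 and 0.843 and 6.998 TPM with Smad3(RA/KP) after TGF-β. *MMP3* did not pass (limma adjusted p = 0.0684 and 0.0634). *MMP3* and *MMP10* are close paralogs, and the sources used here do not say how reads from shared stretches were assigned. The cluster thus held a gene at high level with or without TGF-β, *MMP7*, beside *MMP1*, which rose from under 1 TPM, and *MMP10*, which rose and was listed at 0 without TGF-β.

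The bases before the start sites of *MMP7* and *MMP10* are shown because the genes share a locus and differed in level and in response. Their RefSeq starts equal the starts of the deposited records, whereas those of the other 4 matched members were 52 to 889 bp apart. RefSeq promoters (GRCh38.p14) were matched for 6 of the 10 members, *MMP7*, *MMP10*, *MMP14*, *MMP15*, *TIMP1* and *TIMP3*. The sequences below cover the 250 bases before the start, read 5′ to 3′ on the minus strand, at chr11:102530748-102530997 for *MMP7* and chr11:102780629-102780878 for *MMP10*. Capitals mark matches to TGANTCA, the AP-1 motif, and to TATAAA, the TATA box.
MMP7: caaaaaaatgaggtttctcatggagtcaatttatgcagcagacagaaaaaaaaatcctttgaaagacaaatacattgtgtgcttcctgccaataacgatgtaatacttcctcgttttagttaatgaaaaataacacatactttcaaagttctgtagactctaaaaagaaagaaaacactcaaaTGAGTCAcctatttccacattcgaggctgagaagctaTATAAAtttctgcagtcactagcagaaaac
MMP10: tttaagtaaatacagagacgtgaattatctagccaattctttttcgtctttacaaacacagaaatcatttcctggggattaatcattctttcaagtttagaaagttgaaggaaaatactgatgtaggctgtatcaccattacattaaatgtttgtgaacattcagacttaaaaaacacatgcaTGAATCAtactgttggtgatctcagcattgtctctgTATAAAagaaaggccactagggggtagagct
In both promoters the AP-1 match begins 67 bases before the start, as TGAGTCA in *MMP7* and TGAATCA in *MMP10*, and the TATAAA begins at 30 and 31 bases. Searched on both strands in 250 bases before to 50 after the start, TGANTCA was found in 7.71% and TATAAA in 11.5% of 35116 RefSeq promoters. The promoters of *MMP14*, *MMP15*, *TIMP1* and *TIMP3* held neither. The Smad motif CAGAC, found in 45.3% of promoters, was in 5 of the 6, all but *TIMP1*. The ETS core GGAA was in all 6 and in 95.5% of promoters, and its full form CCGGAA, which contains the core, was in *MMP14* and in 17.2%. GC content was 35.7% for *MMP7* and 36.3% for *MMP10* against 55.0 to 75.3% for the other 4, with a median of 58.7% over all promoters. These are matches of letters only. *MMP7* and *MMP10* share the AP-1 and TATA matches and differ in response. *TIMP3*, which rose, has neither in this window, whose RefSeq start lies 889 bp from the deposited one. *MMP1*, *MMP2*, *MMP9* and *TIMP2*, which also rose, had no matched promoter. The part of these motifs in the response was not tested.

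*MMP14* and *MMP15* encode membrane-type enzymes, of which the product of *MMP14* activates proMMP2 at the cell surface. *MMP14* was low throughout, at 1.94 and 1.83 TPM before and 0.787 and 1.502 TPM after TGF-β with wild-type Smad3. With Smad3(RA/KP) it had 2.20 and 1.65 TPM before and 2.32 and 1.59 TPM after. The ranges were apart only with wild-type Smad3, where the log2 fold change was −0.45 (95% interval −1.14 to 0.24, limma adjusted p = 0.563). With Smad3(RA/KP) it was 0.01 (−0.68 to 0.70). *MMP15* had 10.4 to 13.2 TPM over the 8 libraries, and its log2 fold changes were −0.04 (−0.49 to 0.41) and 0.13 (−0.32 to 0.58). *MMP14* lies on chromosome 14 at 22836533 to 22847600 and *MMP15* on chromosome 16 at 58025378 to 58046901 (GRCh38, plus strand).

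*TIMP2* encodes an inhibitor that, bound to the product of *MMP14*, also takes part in the activation of proMMP2. It had 144 and 149 TPM before and 316 and 323 TPM after TGF-β with wild-type Smad3. In Smad3(RA/KP) cells it had 159 TPM in both untreated libraries and 331 and 312 TPM after treatment. Replicates lay close together, the groups did not overlap, and the treated level was 1.96 to 2.20 times the untreated level in every replicate of both lines. The log2 fold change was 1.12 (SE 0.14, limma adjusted p = 0.0029) with wild-type Smad3. The Smad3(RA/KP) value was 1.01 (SE 0.14, limma adjusted p = 0.0052). The wild-type call was lost without untreated replicate 1 or either treated library (adjusted p = 0.0566 to 0.0612), and the Smad3(RA/KP) call without either of its treated libraries (0.0529 and 0.0508), while the fold changes in all 20 alternative fits stayed between 0.95 and 1.19. *TIMP2* lies on chromosome 17 at 78852977 to 78925390 (GRCh38, minus strand) and overlaps the record LOC100653515, which had at most 0.607 TPM.

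*TIMP3* encodes the TIMP that binds to the extracellular matrix. It had 0.439 and 0.348 TPM before and 9.10 and 6.90 TPM after TGF-β with wild-type Smad3. With Smad3(RA/KP) it had 0.189 and 0.225 TPM before and 12.04 and 4.82 TPM after. All 4 treated libraries lay above all 4 untreated ones, by 19.8 to 63.6 times within a replicate. These ratios divide by 0.189 to 0.439 TPM, close to 0, so their size is uncertain. The 63.6 came from Smad3(RA/KP) replicate 1, and replicate 2 of that line gave 21.4. The log2(TPM + 1) scale gives less weight to such low levels. On that scale the fold change was 2.68 (SE 0.33, limma adjusted p = 0.0025) with wild-type Smad3. For Smad3(RA/KP) it was 2.85 (SE 0.33, limma adjusted p = 0.0022). The wild-type call was lost without either treated wild-type library (adjusted p = 0.0622 and 0.0564), and the Smad3(RA/KP) call was kept in all 19 alternative fits that tested the gene. *TIMP3* lies on chromosome 22 at 32800816 to 32863041 (GRCh38, plus strand).

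*TIMP1*, a secreted inhibitor of many MMPs, was the most abundant member in every library. It had 455 and 398 TPM before and 487 and 357 TPM after TGF-β with wild-type Smad3, and 495 and 292 TPM before and 397 and 425 TPM after with Smad3(RA/KP). The groups overlapped in both lines. Log2 fold changes were −0.03 (95% interval −0.49 to 0.44) with wild-type Smad3 and 0.11 (−0.35 to 0.58) with Smad3(RA/KP). The highest and the lowest of the 8 values were those of untreated Smad3(RA/KP) replicates 1 and 2, the group whose replicates differed most with GC content. *TIMP1* lies on chromosome X at 47582291 to 47586791 (GRCh38, plus strand). Records on the opposite strand overlap *TIMP1* (*SYN1*), *TIMP3* (*SYN3*) and *MMP1* (*WTAPP1*). *SYN1* and *SYN3* were listed at 0 in all libraries, and *WTAPP1* had 0.292 TPM in 1 untreated Smad3(RA/KP) library and 0 in the rest.

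The order of levels was alike in the 4 groups at its top and changed below it. *TIMP1*, *TIMP2* and *MMP7* were the 3 highest members in each group, in that order and with ranges that did not overlap. Below them by mean came *MMP15* and then *MMP2* without TGF-β, and *MMP2* and then *MMP15* with it, in both lines. The ranges of *MMP15* and *MMP2* did not overlap in any group. *MMP14*, *MMP9* and *MMP1* followed in untreated cells, where the range of *MMP9* overlapped those of both others. In treated cells *TIMP3*, *MMP9*, *MMP10* and *MMP1* overlapped with one another, and *MMP14* was the lowest of the 10. The range of *MMP15* in treated cells overlapped that of *MMP9* with wild-type Smad3. With Smad3(RA/KP) it overlapped those of *TIMP3*, *MMP9*, *MMP10* and *MMP1*.

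Summed over the 7 MMP genes, TPM was 104.6 to 155 in untreated and 156 to 163 in treated libraries. *MMP7* made up 78.0 to 88.7% of this sum without TGF-β and 37.0 to 66.4% with it. Without *MMP7*, the other MMPs summed to 17.5 to 23.0 TPM in untreated and 53.8 to 98.6 TPM in treated libraries. The 3 TIMP genes summed to 451 to 654 TPM without and 687 to 813 TPM with TGF-β, and the share of *TIMP1* was 64.8 to 75.9% and 52.0 to 60.0%. TIMP transcripts outnumbered MMP transcripts 3.87 to 5.23 times over the 8 libraries, with overlapping values in treated and untreated cells. The sums depend on which genes are included, since *MMP24* alone had 42.8 to 92.7 TPM. Over the members and the 17 other family genes, 23 MMP genes summed to 184 to 264 TPM without and 221 to 246 TPM with TGF-β, and *MMP7* made up 43.2 to 52.1% and 24.5 to 45.3%, both with overlapping ranges. The TIMP to MMP ratio over these genes was 2.32 to 2.95 without and 3.08 to 3.54 with TGF-β, ranges that did not overlap. These sums are of transcripts and say nothing of protein or activity, and no test was run on them.

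**Figure D2:**
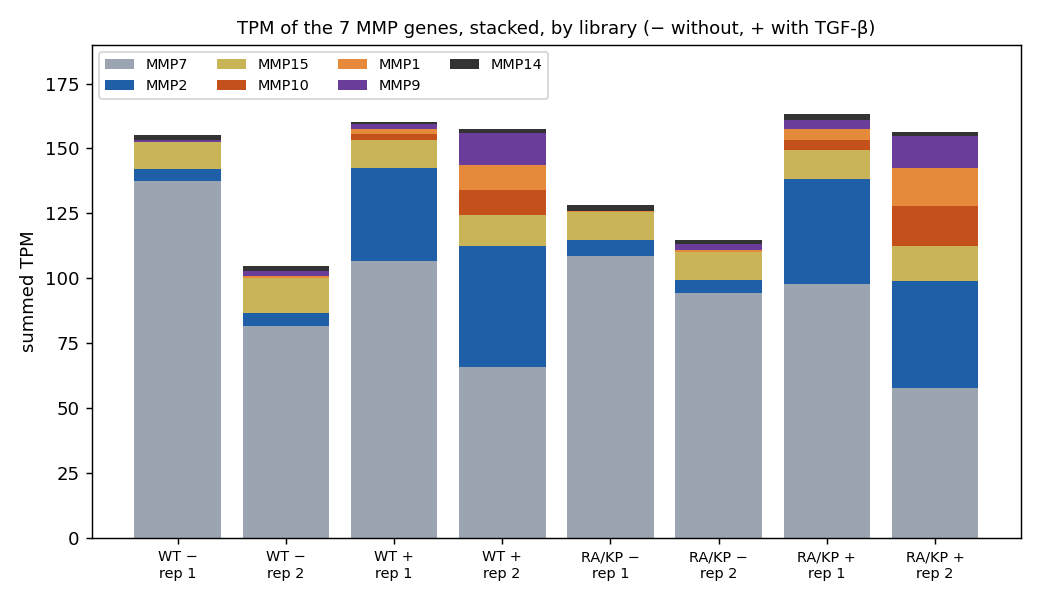
TPM of the 7 MMP members stacked for each library, other MMP genes left out, on a linear axis from 0. WT and RA/KP name the Smad3 form, and − and + mark cells without and with TGF-β. *MMP7* makes up 78.0 to 88.7% of each untreated bar and 37.0 to 66.4% of each treated bar, where *MMP2* is the largest addition.

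The second question was whether the Smad3 form altered any member. No member passed in the difference of the 2 responses, in untreated cells or in treated cells, and 0 of 10 had an unadjusted p under 0.05 in any of these 3 limma comparisons. Over all tested genes 0.0228% passed in the difference of responses, 0.0152% between untreated lines and 0.00761% between treated lines, and at an unadjusted p under 0.05 the counts were 564, 329 and 973. The difference, Smad3(RA/KP) minus wild type, was −0.10 for *MMP2* (95% interval −0.79 to 0.58) and −0.11 for *TIMP2* (−0.57 to 0.35). It was 0.17 for *TIMP3* (−0.90 to 1.24) and −0.09 for *MMP7* (−0.67 to 0.50). These intervals allow a response that is higher or lower with Smad3(RA/KP). The difference was 0.62 for *MMP1* (−0.73 to 1.97), 0.49 for *MMP9* (−0.48 to 1.46) and 0.54 for *MMP10* (−1.02 to 2.1). Among treated cells, *MMP1* was 0.74 higher on the log2 scale with Smad3(RA/KP) (−0.22 to 1.69, limma adjusted p = 0.728). *MMP2* and *TIMP2* differed there by −0.0020 (−0.48 to 0.48) and 0.01 (−0.32 to 0.33). Each of the 3 comparisons shares libraries with the responses above.

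**Figure D3:**
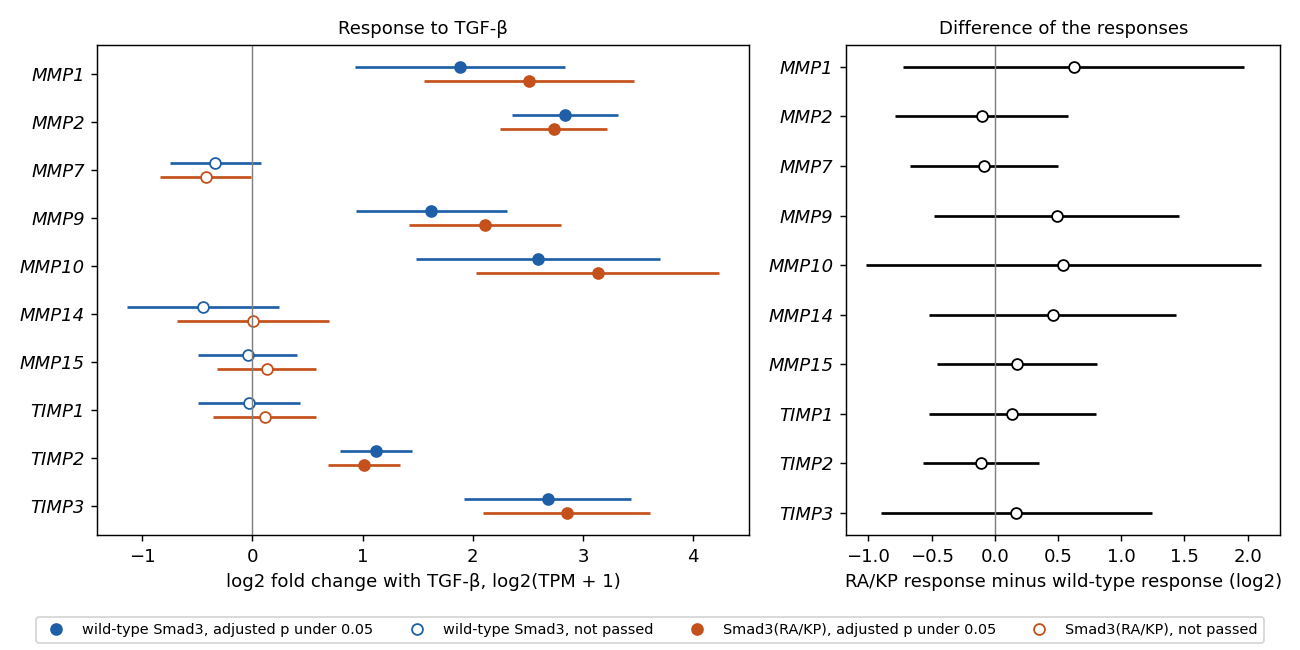
Left, log2 fold change of each member with TGF-β on the log2(TPM + 1) scale with 95% intervals, in blue for wild-type Smad3 and in orange for Smad3(RA/KP), where filled points passed at an adjusted p under 0.05. Right, the Smad3(RA/KP) response minus the wild-type response with its 95% interval. The 6 members that passed are the same in both lines, and all 10 intervals of the difference include 0.

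Other genes of the family and of its surroundings were read from the same fit. Of 17 other MMP and TIMP genes, 8 were listed at 0 in all libraries and 6 passed the filter, *MMP3* and *MMP25* only through their treated libraries. With wild-type Smad3, where 4.68% of all tested genes passed, 0 of 6 rose and 1 fell, *MMP24*, a membrane-type MMP, by 0.70 on the log2 scale (limma adjusted p = 0.0389). *MMP24* had 92.7 and 68.3 TPM before and 55.0 and 42.8 TPM after TGF-β. It did not pass with Smad3(RA/KP), at −0.32 (limma adjusted p = 0.272), nor did the difference between lines (0.38, adjusted p = 0.881). *MMP24* overlaps *MMP24-AS1*, at 38.5 to 61.5 TPM, and the sources used here do not say whether the strand was used in counting, so reads of the pair could not be told apart.

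Of 22 genes for activators, receptors and inhibitors of MMP and plasmin proteolysis, 15 were tested, and 6 rose and 0 fell with wild-type Smad3, where 2.94% of all tested genes rose. *FURIN*, the convertase that activates membrane-type MMPs, rose by 1.93 on the log2 scale. *PLAUR*, the urokinase receptor, rose by 1.40 and *SPOCK1*, a matrix proteoglycan gene, by 1.80 on the same scale. With Smad3(RA/KP), 5 of 15 rose and 0 fell, where 3.49% of all tested genes rose, with *FURIN* at 1.91, *PLAUR* at 1.17 and *SPOCK1* at 1.25.

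Of 20 transcription factors known to act on MMP promoters, 19 were tested, and 5 rose and 1 fell in each line, where 4.68% of all tested genes passed with wild-type Smad3 (2.94% as higher) and 4.98% with Smad3(RA/KP) (3.49% as higher). The AP-1 subunit *JUNB* rose by 2.69 with wild-type Smad3 and by 3.03 with Smad3(RA/KP), and *JUN* by 1.47 and 1.58. *SNAI1*, a repressor of epithelial genes, rose by 2.69 and 2.63. *ELF3*, an epithelial ETS factor, fell by 2.47 and by 1.86 on the log2 scale, from 89.1 to 297 TPM in untreated to 18.1 to 92.8 TPM in treated libraries. None of the 3 lists had a gene that passed between the lines or in the difference of responses, in this limma fit. The median log2 fold change with wild-type Smad3 and with Smad3(RA/KP) was 0.24 and 0.27 for the other family genes, 0.49 and 0.32 for the activators, receptors and inhibitors, and 0.52 and 0.40 for the factors. *SNAI2*, which rose in both lines, and *FOSB* averaged under 1 TPM over the untreated libraries, as did *MMP3* and *MMP25*. These genes passed the filter only through their treated libraries. The filter thus favored a difference, and the list counts and medians are given as descriptions.

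The genes whose log2(TPM + 1) followed each responding member most closely over the 8 libraries were also listed, among 13140 others. For *MMP2* the closest was *COL4A1*, a chain of type IV collagen, at a Pearson r of 0.999, and *COL4A1* was also the closest to *TIMP2*, at 0.997. *MMP2* itself was among the 3 closest to *TIMP2*, at 0.995. *TIMP3* was closest to *MYO10* at 0.992, and *SMAD7*, the inhibitory Smad, was its second at 0.991. *MMP1* was closest to *RGS3* (0.990), *MMP9* to *CNPPD1* (0.990) and *MMP10* to *DFNB31* (0.993), and *FHOD1*, a formin gene, was among the 3 closest to both *MMP1* and *MMP10*. These are descriptions of 8 libraries that share 2 treatments and 2 replicate numbers, and with so few points high values are common among genes that respond to TGF-β.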

How the data were processed

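Alignment by the authors was to GRCh38 with HISAT2, and StringTie was run on known transcripts only. The submitters' processing notes give versions 2.1.0 and 2.0.4. The annotation was not given in the sources used here. For each library the authors deposited the mean base coverage, FPKM (per length and mapped fragments) and TPM (scaled to a total of 1000000) of 33122 records. Depth was recovered as coverage divided by FPKM at an FPKM of at least 10. Read counts were not part of the tables, so counting error is not given.

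Records of a symbol were summed. limma 3.58.1 (R 4.3.3) was fitted on log2(TPM + 1) to the 13141 symbols with a mean TPM of at least 1, with 4 groups, a block for the replicate number, eBayes with a trend (3 residual and 5.90 prior degrees of freedom) and Benjamini-Hochberg adjustment at 0.05. The study describes 2 independent experiments, and that same-numbered libraries belong to one experiment is an assumption. Steps were tested on simulated data. Intervals are 95%.

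The members and lists were chosen with earlier results of these data known. Named genes are all members, up to 4 genes per list and contrast with the smallest p among those that passed, and the 3 most correlated genes per responding member. A gene that this rule names is not reported here. *MMP3*, *MMP25*, *FOSL1*, *ETS1*, *FOSB* and *SNAI2* were named after their values were seen, as was the *MMP24* overlap. The sums over the whole family were chosen after seeing the data. Alternatives were other pseudocounts, filters, FPKM, scalings, blocks, trends, a GC correction and leaving out each library. Figures used matplotlib 3.10.9.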

Additional observations from a re-analysis of the deposited data

How the results depend on the processing

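In cells with wild-type Smad3, 6 members passed. With a pseudocount of 5 TPM, with no filter, with no replicate block and with a replicate block within each line the count was 3, and these were *MMP2*, *TIMP2* and *TIMP3*. The number of all genes passing also changed between fits, over the range given below. Whether the member counts only follow that number was not tested. At a mean TPM of at least 5 it was 2 of the 5 members that this filter keeps. With 1 library left out it was 1 to 6. It was 1, *MMP2*, without either treated wild-type library and 3 without untreated wild-type replicate 2. In cells with Smad3(RA/KP), where 6 passed, no filter gave 3 and a mean TPM of at least 5 gave 2. No replicate block gave 4 in that line, with *MMP1* and *MMP9* lost. With 1 library left out the count was 2 to 7, with 2 (*MMP2* and *TIMP3*) without treated Smad3(RA/KP) replicate 2 and 7, *MMP7* included, without untreated replicate 1. The other causes were not tested, except that the higher filter and the fits without a library hold fewer genes or samples by construction. Counts between the lines were 0 in every alternative.

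Deviations of same-numbered libraries from their group means correlated at 0.0484 to 0.332 between pairs of groups, so the replicate block rests on a weak pairing. The lowest value, 0.0484, was that between untreated and treated Smad3(RA/KP) libraries, and the other pairs had 0.221 to 0.332. With the GC trend removed, 5 members passed with wild-type Smad3, where *MMP1* had an adjusted p of 0.0503, and 6 with Smad3(RA/KP). Of 975 member values under the alternatives, 46 lost and 1 gained their call, 0 reversed a call, and 69 that passed in neither fit changed sign. Over all genes, the number passing ranged from 113 to 1198 (615 in the fit reported) with wild-type Smad3, 161 to 2723 (655) with Smad3(RA/KP), 0 to 8 (3) for the difference, 0 to 8 (2) between untreated and 0 to 6 (1) between treated lines. The number of libraries, 2 per group, limits the precision, most for members near 0 TPM without TGF-β.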
